A study of Mus musculus with 4 samples.

Results

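The sarcomere and Z-disc genes were 32 genes of the cardiac contractile apparatus, chosen by symbol from the 32285 genes of the count tables. They comprised 7 genes of the thin filament, 5 of the thick filament, 3 of titin and the M-line, and 17 of the Z-disc. Left ventricle of male C57BL/6J wild-type mice was profiled on the 10x Genomics Chromium system, with 1 library for each of 4 conditions: young and aged mice, each as sham and after ischemia/reperfusion (I/R). Young mice were 3 to 5 months old and aged mice 24 to 26 months old. I/R was produced by surgery on the left anterior descending coronary artery, with ischemia for 45 minutes and reperfusion for 24 hours. The sample labels call the sham tissue healthy and unaltered and name nuclear RNA as the molecule, whereas the study's methods describe sham operations and whole cells. How many mice went into a library is not stated in the sources used here.

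The sarcomere is the repeating contractile unit of heart muscle. Myosin heads of the thick filament pull on actin of the thin filament when calcium binds troponin C, and titin runs from the Z-disc to the M-line, setting passive stiffness and centring the thick filament. The Z-disc anchors actin of neighbouring sarcomeres through alpha-actinin and carries many proteins that sense load, and several of the genes below are known for inherited cardiomyopathy.

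For each gene, unique molecular identifiers (UMIs, each standing for 1 captured transcript) were summed over all barcodes of a library and scaled by that library's total (CPM, the usual counts-per-million unit). The libraries held 25836175 to 66767829 UMIs in 91124 to 102883 barcodes, with medians of 244 to 675 UMIs per barcode, and each pair of libraries shared 2366 to 2843 barcode sequences. Malat1, a nuclear RNA, ran from 2.22% of UMIs in young I/R to 7.34% in young sham. The gene Gm42418 took 11.5% of UMIs in young sham and 19.4% after young I/R, and 14.0% in aged sham and 13.8% after aged I/R. With 1 library per condition no test between conditions was possible, and the 95% intervals printed with the values cover counting error only, not variation between mice. In such sums, fewer cardiomyocytes and less RNA per cardiomyocyte cannot be told apart. The median log2 ratio of all genes with at least 100 UMIs was -0.44 for young I/R over young sham, 0.09 for aged I/R over aged sham, -0.14 for aged over young sham and 0.43 for aged over young I/R. A gene that held its place among the others in young I/R was therefore lower in CPM, and ratios are given below both as measured and, where it matters, relative to that median. All 32 genes were above 0 in each library, with the scarcest value 269 UMIs for Synm in young I/R.

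Together the 32 genes took 8.04% of UMIs in young sham and 6.99% after young I/R, and 7.35% in aged sham and 8.83% after aged I/R. Young sham and aged I/R thus held the larger sums. Without Ttn, the summed log2 ratio was 0.07 for young I/R over young sham, where it was -0.20 with Ttn, and -0.04 for aged I/R over aged sham, where it was 0.27 with Ttn. The median over members was -0.10 for young I/R and 0.32 for aged I/R, each against sham of the same age, and the young median became 0.30 when the libraries were scaled by gene-wise ratios.

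In young I/R, 4 of 32 members were at least 1.5-fold above young sham and 7 were at least 1.5-fold below. Over all genes with at least 100 UMIs, 5.35% were past that fold upward and 41.9% downward. In aged I/R, 7 members were at least 1.5-fold above aged sham and 3 below, beside 14.4% and 7.43% of all genes. Aged sham held 4 members at least 1.5-fold above young sham and 5 below, beside 6.12% and 16.9% of all genes. Aged I/R held 10 members above young I/R and 3 below, beside 39.3% and 3.29% of all genes. A scaling shifts every gene alike, and gene-wise ratio scaling moved the split to 11 members higher and 3 lower in young I/R over sham, beside 16% and 22.5% of all genes. In aged over young I/R it moved the split to 5 higher and 7 lower, beside 19.1% and 11.4%. Scaling by other cardiomyocyte genes gave 17 higher and 1 lower in aged I/R over sham, beside 38.1% and 1.84%. As CPM, members lower in young I/R thus made up a smaller share than the background, and members higher in young I/R a larger one. In CPM the members past 1.5-fold upward in young I/R were all Z-disc genes, a role holding 17 of the 32 members. With gene-wise ratio scaling, Tnni3 (0.62), Tnnc1 (0.79), Myl3 (0.72) and Myom2 (0.73) were also past that fold upward.

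**Figure D1:**
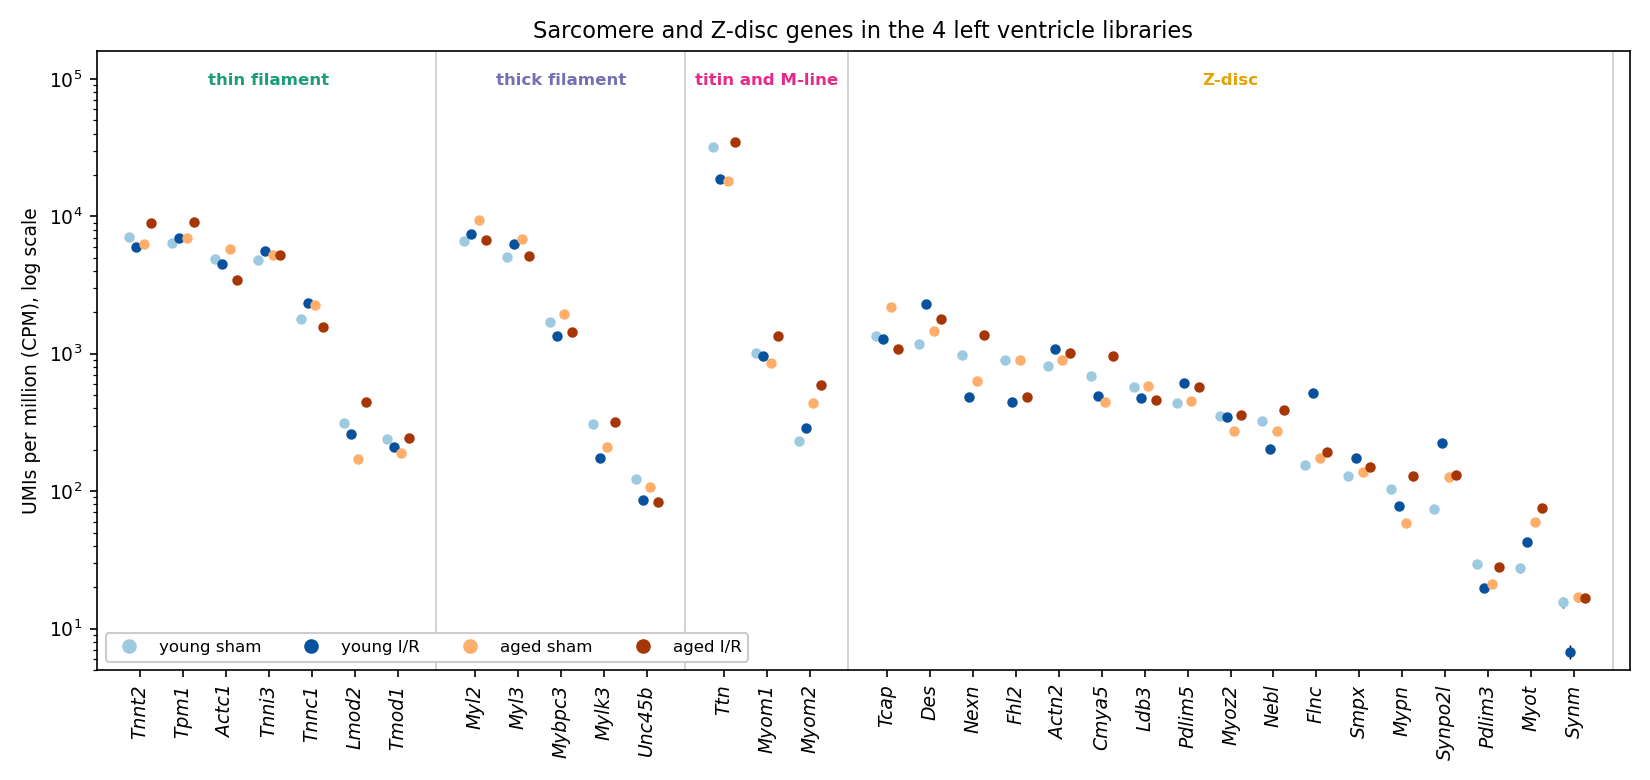
Levels of the 32 genes in the 4 libraries, in CPM on a log axis, with genes grouped by role and ordered by the young sham level. Each point is 1 library with its exact Poisson 95% interval, which is mostly smaller than the point. Ttn lay at 31744 and 34439 CPM in young sham and aged I/R and at 18615 and 18041 CPM in young I/R and aged sham.

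Thin filament genes kept the narrowest range in young hearts, with log2 ratios of -0.27 to 0.39 for young I/R over young sham, and spread out to between -0.76 and 1.37 for aged I/R over aged sham. In CPM, no member of this group was past 1.5-fold in young I/R, and in aged I/R Lmod2 was past it upward and Actc1 downward. With scaling by gene-wise ratios, Tnni3 (0.62) and Tnnc1 (0.79) were past it upward in young I/R. The group median was -0.12 in young and 0.38 in aged hearts after I/R. With scaling by gene-wise ratios, the young medians of all 4 roles were above 0, at 0.28 for the thin filament, 0.06 for the thick filament, 0.32 for titin and the M-line and 0.35 for the Z-disc.

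Actc1, the cardiac actin that forms the filament, was measured at 4865 CPM in young sham and 4467 after young I/R, and 5816 in aged sham and 3433 after aged I/R. Its lowest level was thus in aged I/R, 0.76 log2 units below aged sham (interval -0.77 to -0.75). The young I/R ratio of Actc1 was -0.12, but became 0.28 with scaling by gene-wise ratios. Tpm1, the tropomyosin that covers the myosin-binding sites of actin, was at 6383, 6998, 6987 and 9139 CPM in the same order, highest in aged I/R. Counted within each library, Actc1 had 0.762 UMIs per Tpm1 UMI in young sham and 0.638 after young I/R, and 0.832 in aged sham and 0.376 after aged I/R. Such a ratio does not depend on library scaling, and it was lowest in aged I/R.

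The 3 troponin genes did not move together. Tnnt2, the subunit that binds tropomyosin, was at 7053 CPM in young sham and 5996 after young I/R, and 6321 in aged sham and 8987 after aged I/R. Tnni3, the inhibitory subunit, was flatter, at 4840.3, 5607, 5194 and 5221 CPM. Tnnc1, the calcium-binding subunit, was at 1791, 2344, 2269 and 1555 CPM. After I/R, Tnnt2 was lower in young hearts (log2 ratio -0.23, interval -0.24 to -0.23) and higher in aged hearts (0.51, 0.50 to 0.51), but its young direction turned to 0.17 when libraries were scaled by the median of gene-wise ratios. Tnnc1 went the other way, higher in young I/R (0.39, 0.37 to 0.40) and lower in aged I/R (-0.55, -0.56 to -0.53), and kept both directions under each scaling tried. Per Tnni3 UMI, there were 1.46 Tnnt2 UMIs in young sham and 1.07 after young I/R, and 1.22 in aged sham and 1.72 after aged I/R.

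Lmod2 and Tmod1 control thin filament length at the pointed end, where leiomodin favours elongation and tropomodulin caps the filament. Lmod2 (chr6:24597762-24605414, GRCm38, plus strand) was at 315 CPM in young sham and 261 after young I/R, and 172 in aged sham and 446 after aged I/R. It had the highest ratio of all 32 genes in aged I/R over aged sham (1.37, 1.34 to 1.41), and the lowest of all 32 in aged over young sham (-0.87, -0.92 to -0.83). Tmod1 was flatter, at 240.2, 211, 189 and 246 CPM, with an aged I/R ratio of 0.38 (0.34 to 0.42). Between the I/R libraries, Lmod2 had the highest ratio of the group in aged over young (0.78, 0.74 to 0.81) and Tnnc1 the lowest (-0.59, -0.61 to -0.58), whereas Tnnc1 was highest between the sham libraries (0.34, 0.33 to 0.36). The young I/R ratios of Lmod2 (-0.27, -0.32 to -0.23) and Tmod1 (-0.19, -0.24 to -0.14) were below 0, but became 0.13 and 0.22 with scaling by gene-wise ratios.

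Tnnc1 stands for the members that were higher in young I/R and lower in aged I/R. The 250 bases before its RefSeq start (GRCm38.p6, chr14:31208062-31208311, plus strand) are shown with motif matches in capitals, here 1 MCAT motif, the binding sequence of TEAD factors, on the other strand.
Tnnc1: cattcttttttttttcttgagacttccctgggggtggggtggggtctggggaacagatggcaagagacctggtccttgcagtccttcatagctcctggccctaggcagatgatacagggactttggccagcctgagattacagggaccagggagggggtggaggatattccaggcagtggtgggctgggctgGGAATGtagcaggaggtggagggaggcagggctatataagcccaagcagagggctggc

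Thick filament genes divided into an abundant pair of light chains and scarcer regulatory and assembly genes. Summed, the 5 genes reached 13842 CPM in young sham and 15318 after young I/R, and 18472 in aged sham and 13738 after aged I/R, with the highest sum in aged sham. The group median was -0.34 for I/R over sham in young and -0.41 in aged hearts, above the median of all genes in young (-0.44) and below it in aged hearts (0.09).

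Myl2, the regulatory light chain of ventricular myosin, was at 6619 CPM in young sham and 7384 after young I/R, and 9373 in aged sham and 6756 after aged I/R. Myl3, the essential light chain, was at 5090.3, 6329, 6838 and 5148 CPM. Both were highest in aged sham and lowest in young sham. Against sham, Myl2 was higher in young I/R (0.16, 0.15 to 0.17) and lower in aged I/R (-0.47, -0.48 to -0.47). Myl3 likewise was higher in young I/R (0.31, 0.30 to 0.32) and lower in aged I/R (-0.41, -0.42 to -0.40). These directions held under each of the scalings tried. With scaling by other cardiomyocyte genes, however, the aged ratios came to -0.11 for Myl2 and -0.05 for Myl3. In aged over young sham, Myl2 had the highest ratio of the group (0.50, 0.49 to 0.51).

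Mylk3, the cardiac kinase that phosphorylates the regulatory light chain, had the reverse pattern, at 305, 174, 209 and 320.0 CPM. Its log2 ratio was -0.81 (-0.86 to -0.76) in young I/R, the lowest of the thick filament, and 0.61 (0.58 to 0.65) in aged I/R, the highest. In aged over young, Mylk3 was lowest of the group in sham (-0.55, -0.59 to -0.50) and highest in I/R (0.88, 0.84 to 0.92), where Myl3 was lowest (-0.30, -0.31 to -0.29). Per 1 UMI of Myl2, its substrate, Mylk3 gave 0.0462 UMIs in young sham and 0.0236 after young I/R, and 0.0223 in aged sham and 0.0474 after aged I/R. Young sham and aged I/R therefore had about the same ratio of kinase to substrate transcripts, above the other 2 libraries. Mylk3 has a genomic span of 62.0 kb and Myl2 of 12.5 kb, and the part of span in this ratio was not tested. Mybpc3, the myosin-binding protein C that restrains the heads, was at 1704, 1344, 1944 and 1431 CPM, lower after I/R at both ages, although the young direction became 0.06 with scaling by gene-wise ratios. Unc45b, a chaperone for myosin folding, was at 124, 86.8, 108 and 83.3 CPM and was lower after I/R at both ages under each scaling. Its aged ratio came to -0.02 with scaling by other cardiomyocyte genes.

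The Myl3 upstream window (GRCm38.p6, chr9:110763428-110763677, plus strand) is shown because Myl3 had the same directions after I/R as Tnnc1. Capitals mark 2 MCAT motifs, 1 on each strand, and a CArG box, the binding sequence of serum response factor.
Myl3: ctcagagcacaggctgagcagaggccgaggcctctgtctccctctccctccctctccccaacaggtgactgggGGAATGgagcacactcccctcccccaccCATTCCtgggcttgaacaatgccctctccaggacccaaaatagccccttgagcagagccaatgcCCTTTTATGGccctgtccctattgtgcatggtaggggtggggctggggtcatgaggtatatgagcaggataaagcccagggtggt

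Titin and the M-line held the largest differences in summed level. Ttn, the giant spring protein encoded at chr2:76703980-76982547 (GRCm38, minus strand), was at 31744 CPM in young sham and 18615 after young I/R, and 18041 in aged sham and 34439 after aged I/R. Young sham and aged I/R stood well above the other libraries. Against sham, Ttn was lower in young I/R (-0.77, -0.77 to -0.77) and higher in aged I/R (0.93, 0.93 to 0.94). Relative to the median of all genes, these were -0.33 and 0.85, and both directions held under each scaling. In aged over young sham Ttn was lower (-0.82, -0.82 to -0.81), and in aged over young I/R it was higher (0.89, 0.88 to 0.89).

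Titin and the M-line made up 41.0% of the members' UMIs in young sham and 28.4% after young I/R, and 26.3% in aged sham and 41.2% after aged I/R. These shares count UMIs and are not scaled for transcript length. Leaving Ttn out, Myom1 and Myom2 made up 2.56%, 2.44%, 2.32% and 3.59% of the rest. The thick filament was then at 28.4%, 29.9%, 33.3% and 25.5% of UMIs, the thin filament at 52.3%, 50.5%, 48.6% and 53.9%, and the Z-disc at 16.7%, 17.2%, 15.7% and 17.1%. With Ttn out, the thick filament share was highest in aged sham and lowest in aged I/R, and the M-line share was highest in aged I/R.

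**Figure D2:**
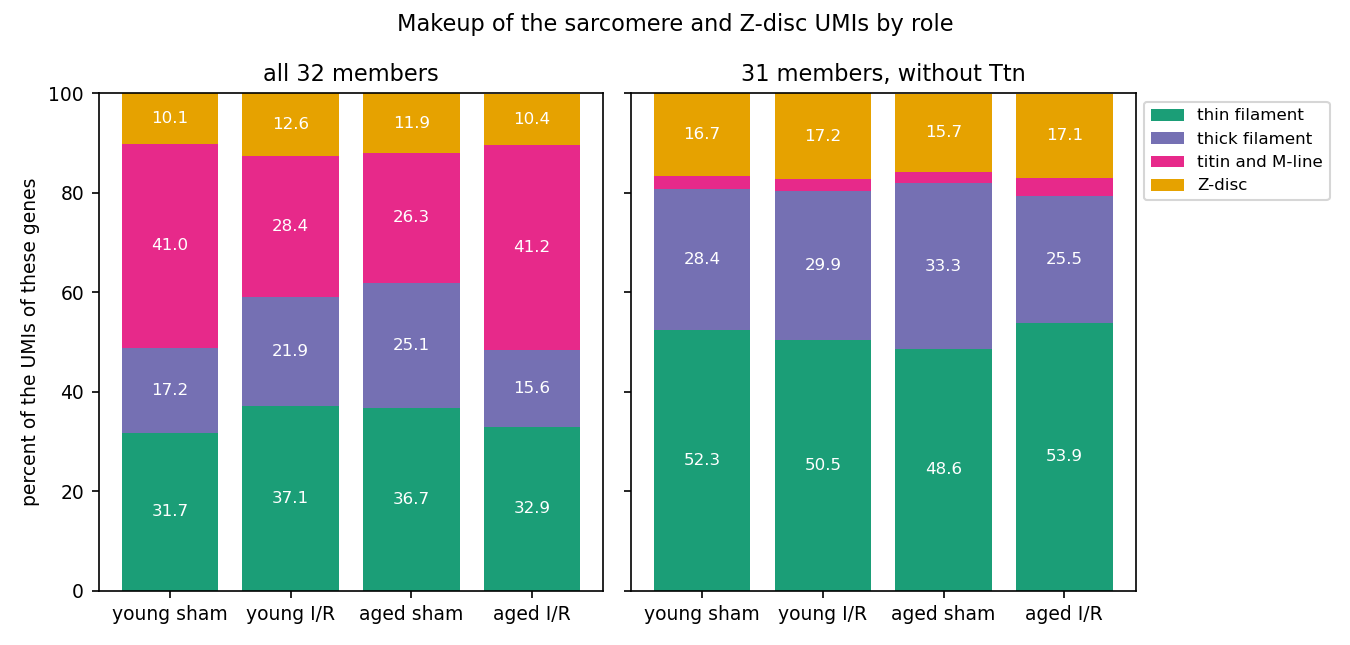
Percent of the UMIs of the sarcomere and Z-disc genes taken by each role in the 4 libraries, for all 32 genes on the left and without Ttn on the right. Titin and the M-line took 41.0% and 41.2% in young sham and aged I/R and 28.4% and 26.3% in the others, and between 2.32% and 3.59% of the rest once Ttn was left out.

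Malat1 took 7.34% of UMIs in young sham and 2.22% after young I/R, and 2.88% in aged sham and 4.33% after aged I/R, so it too was higher in the 2 libraries where Ttn was high. Of 3 other nuclear RNAs, Kcnq1ot1 was also higher in those libraries, at 460.1, 152, 147 and 272 CPM, whereas Neat1 was flatter, at 3024, 2556, 2778 and 2906 CPM, and Meg3 was lowest in aged I/R, at 168, 43.1, 68.0 and 38.2 CPM. The mitochondrial share ran the other way, at 10.0%, 14.1%, 15.6% and 9.98%. The part of these differences in the Ttn result was not tested.

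Myom1, the M-line protein that bridges thick filaments, was at 1018 CPM in young sham and 963 after young I/R, and 852 in aged sham and 1337 after aged I/R. Its aged I/R ratio was 0.65 (0.63 to 0.67), while its young ratio of -0.08 (-0.10 to -0.06) turned positive, to 0.32, with scaling by gene-wise ratios. Myom2, the related M-line protein, was at 229.9 CPM in young sham and 287 after young I/R, and 436 in aged sham and 595 after aged I/R. After I/R, Myom2 was higher in young (0.32, 0.28 to 0.37) and in aged hearts (0.45, 0.42 to 0.47), the highest and the lowest ratio of the 3 genes. Unlike Ttn and Myom1, Myom2 was higher in both aged libraries than in both young ones, with ratios of 0.92 (0.88 to 0.97) in sham and 1.05 (1.02 to 1.08) in I/R, where Myom1 had the lowest ratio of the 3 genes (0.47, 0.46 to 0.49). Per Myom2 UMI there were 4.43 Myom1 UMIs in young sham and 3.35 after young I/R, and 1.95 in aged sham and 2.25 after aged I/R, so both aged libraries were below both young ones.

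Ttn is shown as the member that dominated the sums, with a MEF2 site (an A/T-rich motif of the muscle factor MEF2) in capitals (GRCm38.p6, chr2:76982548-76982797, minus strand).
Ttn: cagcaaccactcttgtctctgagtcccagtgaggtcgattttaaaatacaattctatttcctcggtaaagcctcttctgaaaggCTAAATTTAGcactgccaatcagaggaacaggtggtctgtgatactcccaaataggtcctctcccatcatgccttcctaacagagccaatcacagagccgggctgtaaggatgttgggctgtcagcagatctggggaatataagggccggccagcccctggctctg

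Z-disc genes spanned the widest range in young I/R, from -1.19 for Synm to 1.73 for Flnc, with a group median of -0.06. In aged I/R they spanned -1.03 for Tcap to 1.13 for Mypn, with a median of 0.29. Of the 17, 4 were at least 1.5-fold higher and 5 at least 1.5-fold lower in young I/R, beside 5.35% and 41.9% of all genes. In aged I/R 3 were higher and 2 lower, beside 14.4% and 7.43% of all genes. In CPM, all 4 members that were past 1.5-fold upward in young I/R belonged to this group, namely Flnc, Synpo2l, Des and Myot. With scaling by gene-wise ratios, members of each other role were past it as well.

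Flnc, filamin C, which crosslinks actin at the Z-disc and is recruited to damaged sarcomeres, lies at chr6:29433256-29461883 (GRCm38, plus strand) and was at 156 CPM in young sham and 517 after young I/R, and 173 in aged sham and 191 after aged I/R. Synpo2l, an actin-binding Z-disc protein also called CHAP, was at 74.7, 223, 126 and 132 CPM. Des, desmin, the intermediate filament that ties Z-discs to each other and to the membrane, was at 1185, 2304, 1464 and 1791 CPM. In all 3 genes the young I/R library stood above the other 3 libraries. In young hearts, the I/R ratio was 1.73 (1.68 to 1.78) for Flnc, 1.58 (1.504 to 1.65) for Synpo2l and 0.96 (0.94 to 0.98) for Des. In aged hearts the same ratios were 0.14 (0.10 to 0.19), 0.07 (0.02 to 0.12) and 0.29 (0.28 to 0.31), and that of Synpo2l lay at -0.02 with scaling by gene-wise ratios. Relative to the median of all genes, the young ratios were 2.17, 2.02 and 1.40, and these 3 genes stayed past 1.5-fold upward in young I/R under all 6 ways of scaling or counting. Flnc had the lowest ratio of the 32 genes in aged over young I/R (-1.43, -1.47 to -1.40).

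Further Z-disc members were higher in young I/R by less. Actn2, alpha-actinin, the main actin crosslinker of the disc, was at 815 CPM in young sham and 1079.8 after young I/R, and 902 in aged sham and 1008 after aged I/R. Pdlim5, a PDZ and LIM adaptor, was at 438, 617, 450.2 and 572 CPM, and Smpx, a small stretch-responsive muscle protein, at 128, 174, 137 and 149 CPM. In each of these 3 genes both I/R libraries were above both sham libraries. The ratios in young hearts were 0.41 for Actn2, 0.49 for Pdlim5 and 0.44 for Smpx, and those in aged hearts 0.16, 0.35 and 0.12, with the same direction under each scaling.

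Fhl2, a LIM-only protein that binds titin and regulates transcription, was the only member at least 1.5-fold lower in CPM after I/R at both ages. The gene lies at chr1:43123074-43196984 (GRCm38, minus strand). Its levels were 899.5 CPM in young sham and 446 after young I/R, and 901 in aged sham and 483 after aged I/R. Both I/R libraries stood below both sham libraries, whose log2 ratio of aged over young was 0.00 (-0.02 to 0.03). The ratios were -1.01 (-1.04 to -0.98) in young and -0.90 (-0.92 to -0.88) in aged hearts, which kept their sign under each scaling and ranged from -1.13 to -0.61 and from -0.99 to -0.54.

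Tcap, telethonin, which caps the ends of titin in the Z-disc, was lower in aged I/R and, in CPM, nearly level in young I/R. The gene spans chr11:98383811-98384953 (GRCm38, plus strand). It was at 1338 CPM in young sham and 1284 after young I/R, and 2202 in aged sham and 1077 after aged I/R, so aged sham stood above the other libraries. Its ratio was -1.03 (-1.05 to -1.02) in aged I/R over aged sham and 0.72 (0.70 to 0.74) in aged over young sham. In young I/R over young sham the ratio was -0.06, but became 0.35 with scaling by gene-wise ratios. Per UMI of Ttn, its binding partner, there were 0.0422 Tcap UMIs in young sham and 0.0690 after young I/R, and 0.122 in aged sham and 0.0313 after aged I/R. Tcap has a genomic span of 1.14 kb and Ttn of 279 kb, and the part of span in this ratio was not tested.

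In CPM, Nexn, Cmya5, Mypn, Nebl and Pdlim3 followed the Ttn pattern, lower in young I/R and higher in aged I/R. Relative to the median of all genes, their young I/R ratios were -0.56, -0.02, 0.03, -0.24 and -0.14 in that order. Cmya5 and Mypn thus lay close to that median in young I/R. Nexn, nexilin, which binds actin and stabilises the disc, lies at chr3:152236982-152266350 (GRCm38, minus strand) and was at 975 CPM in young sham and 488 after young I/R, and 638 in aged sham and 1370.2 after aged I/R. Cmya5, myospryn, a large scaffold at the costamere and Z-disc, was at 685, 496, 442 and 958 CPM, and Mypn, myopalladin, which links nebulette to alpha-actinin, at 103, 77.5, 59.1 and 129 CPM. Aged I/R was the highest library in all 3 genes. After I/R, Nexn was -0.998 (-1.03 to -0.97) in young and 1.10 (1.08 to 1.12) in aged hearts. Cmya5 was -0.47 (-0.50 to -0.44) and 1.11 (1.09 to 1.14). Mypn was -0.41 (-0.49 to -0.34) and 1.13 (1.06 to 1.19). Between the sham libraries, Mypn had the lowest ratio of the Z-disc genes (-0.80, -0.88 to -0.72). Nexn had the highest ratio of the 32 genes in aged over young I/R (1.49, 1.47 to 1.51).

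Nebl, nebulette, the cardiac actin-binding relative of nebulin, was at 322 CPM in young sham and 201 after young I/R, and 272 in aged sham and 393 after aged I/R. Pdlim3, which binds alpha-actinin, was scarcer, at 29.6, 19.7, 21.3 and 27.9 CPM. The I/R ratios of Nebl were -0.68 (-0.72 to -0.63) and 0.53 (0.50 to 0.56), and those of Pdlim3 -0.59 (-0.73 to -0.44) and 0.39 (0.28 to 0.51). For these 5 genes, both directions held under each scaling, although in young I/R Cmya5 came to -0.06 and Mypn to -0.01 with scaling by gene-wise ratios.

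Myot, myotilin, another actin crosslinker, was ordered by age like Myom2, at 27.4 CPM in young sham and 42.6 after young I/R, and 59.4 in aged sham and 75.8 after aged I/R. It had the highest ratio of the 32 genes in aged over young sham (1.11, 0.99 to 1.24). Ldb3, the PDZ and LIM protein also called ZASP or cypher, was at 573, 473, 581 and 459 CPM, lower in both I/R libraries than in both sham libraries, but its young ratio became 0.13 with scaling by gene-wise ratios, and its aged ratio 0.02 with scaling by other cardiomyocyte genes. Myoz2, calsarcin-1, which binds calcineurin at the disc, was at 353, 346, 275 and 359 CPM, lowest in aged sham. Synm, synemin, a partner of desmin in intermediate filaments, was at 15.5, 6.78, 16.9 and 16.7 CPM and had the lowest young I/R ratio of all 32 genes (-1.19, -1.42 to -0.97). Desmin and synemin thus parted in young I/R, where the ratio of Des to Synm UMIs was 340 (301 to 384), against 76.4 in young sham, 86.5 in aged sham and 107 after aged I/R.

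For the Z-disc, the upstream windows of Synpo2l and Flnc (higher in young I/R), Fhl2 (lower at both ages) and Mypn (the Ttn pattern) are shown (GRCm38.p6). Synpo2l, Flnc and Fhl2 each have 2 RefSeq starts, and the window shown was chosen for holding motifs. The other window held none of the motifs put in capitals in Synpo2l and Flnc, and 1 CArG box in Fhl2. The windows shown lie at chr14:20668355-20668604, minus strand; chr6:29433006-29433255, plus strand; chr1:43196762-43197011, minus strand; and chr10:63203953-63204202, minus strand. Capitals mark a MEF2 site in Synpo2l, an MCAT motif in Flnc, a CArG box, a GATA motif and a TATA box in Fhl2, and an MCAT motif and a TATA box in Mypn. In Fhl2 the GATA motif and the TATA box, and in Mypn both motifs, are on the other strand, so TATAAA reads as TTTATA.
Synpo2l: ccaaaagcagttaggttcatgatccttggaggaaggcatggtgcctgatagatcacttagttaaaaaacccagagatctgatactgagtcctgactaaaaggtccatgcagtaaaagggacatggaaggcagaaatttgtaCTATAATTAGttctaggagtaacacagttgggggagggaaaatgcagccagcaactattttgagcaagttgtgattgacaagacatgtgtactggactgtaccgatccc
Flnc: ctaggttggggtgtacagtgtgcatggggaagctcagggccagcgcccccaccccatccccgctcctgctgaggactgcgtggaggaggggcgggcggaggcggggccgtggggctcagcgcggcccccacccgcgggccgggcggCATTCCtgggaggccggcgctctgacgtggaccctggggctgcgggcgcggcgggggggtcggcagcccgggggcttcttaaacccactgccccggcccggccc
Fhl2: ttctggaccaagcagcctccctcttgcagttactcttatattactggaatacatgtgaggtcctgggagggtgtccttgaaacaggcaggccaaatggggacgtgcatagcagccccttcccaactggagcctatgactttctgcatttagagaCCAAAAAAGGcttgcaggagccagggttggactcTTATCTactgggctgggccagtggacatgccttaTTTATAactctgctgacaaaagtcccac
Mypn: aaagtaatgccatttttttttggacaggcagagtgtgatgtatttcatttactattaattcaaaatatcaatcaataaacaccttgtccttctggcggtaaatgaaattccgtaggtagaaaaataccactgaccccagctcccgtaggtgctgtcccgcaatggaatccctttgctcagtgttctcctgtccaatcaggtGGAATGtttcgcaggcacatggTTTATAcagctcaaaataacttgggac

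Upstream windows were found in RefSeq for 28 of the 32 genes, 39 windows in all since some genes have several starts, and Myom2, Tcap, Myot and Nexn had no entry. In the 250 bases before the start, both strands searched, the MEF2 motif was in 10.3% of these windows and in 0.508% of the 32851 windows of all genes. The CArG box was in 20.5% against 1.47%, MCAT (CATTCC) in 25.6% against 12.6%, and the GATA motif (AGATAA) in 23.1% against 9.99%. These are shares of windows, not of genes, and windows of the same gene can overlap. Both windows of Ldb3 held the same CArG box, which was counted in each. The E-box (CANNTG) was in 71.8% against 66.2%, and the TATA box (TATAAA) in 10.3% against 12.4%. E-boxes are not in capitals above and overlap an MCAT motif in Mypn. CArG boxes were found before Actc1, Fhl2, Ldb3, Myl3, Myom1 and Nebl, and MEF2 motifs before Mybpc3, Myoz2, Synpo2l and Ttn, members whose responses to I/R differed in direction. MCAT motifs were found before Flnc, Myl3, Mylk3, Mypn, Nebl, Pdlim3, Tmod1, Tnnc1, Tnnt2 and Tpm1, which differed in direction as well. No window of Myl2, which had the directions of Tnnc1 and Myl3, held an MCAT motif. A match describes the letters of the window only.

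**Figure D3:**
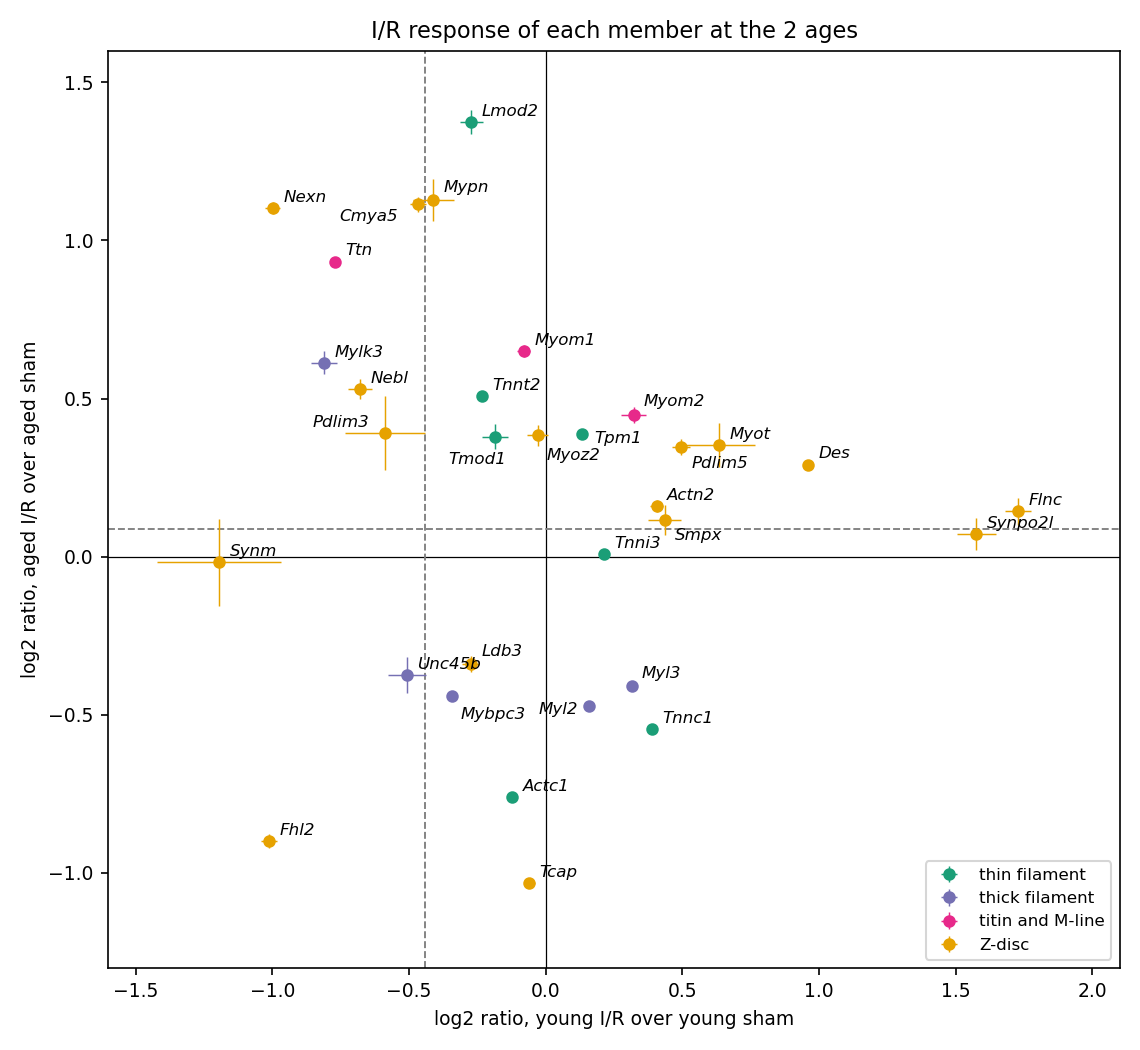
Log2 ratio of I/R over sham for each of the 32 genes in young hearts (horizontal) and aged hearts (vertical), coloured by role, with 95% counting intervals. Dashed lines give the medians of all genes, -0.44 and 0.09. Ttn, Nexn, Cmya5 and Mypn lie at upper left, Flnc, Synpo2l and Des at the right, Fhl2 at lower left.

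The design allows a look at whether the response to I/R differed with age. The young and aged ratios share no library, and the median difference of aged minus young was 0.12 log2 units beside 0.50 over 10541 genes. In all 32 genes the ratios differed by more than counting error, 17 being higher in aged and 15 higher in young hearts. Counting error is small at these UMI numbers, and the same count was not made over all genes. It therefore does not set the members apart. In 14 genes, 43.8% of the members, the intervals lay on opposite sides of 0, beside 41.4% of the 10541 genes. That count needs intervals clear of 0, which genes with fewer UMIs reach less easily. By the sign of the ratios alone, 15 of the 32 members had opposite directions, beside 60.1% of all genes. Of the 14, 11 were lower in young I/R and higher in aged I/R (Tnnt2, Lmod2, Tmod1, Mylk3, Ttn, Myom1, Nebl, Mypn, Pdlim3, Nexn and Cmya5), and 3 were the reverse (Tnnc1, Myl2 and Myl3), beside 33.2% and 8.15% of all genes. Each role had at least 2 of the 14. Under 5 settings, counting CPM itself as 1 of them, 9 of the 14 lay on opposite sides of 0 each time, namely Cmya5, Myl2, Myl3, Mylk3, Nebl, Nexn, Pdlim3, Tnnc1 and Ttn. They were 28.1% of the members, beside 21% of all genes, again counted by intervals. How far 1 library per condition stands for its condition cannot be measured here.

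Genes with a long genomic span differed from short ones in the direction of Ttn. The 16 members with spans up to 29.4 kb had a median of 0.15 in young I/R over young sham, and the 16 with spans from 29.6 kb a median of -0.44. After I/R in aged hearts the medians were 0.11 and 0.39, in aged over young sham 0.22 and -0.22, and in aged over young I/R -0.12 and 0.49. All genes divided at the same span had medians of -0.30 and -0.60, 0.00 and 0.19, -0.05 and -0.24, and 0.28 and 0.58, in the same order of comparisons. The members' difference between long and short spans was thus in the same direction as that of all genes in each comparison. Single members departed from their length class in 1 of the I/R comparisons. Lmod2, with a span of 7.65 kb, was at 1.37 in aged I/R. In young I/R it was at -0.27, close to the -0.30 of all short genes, and became 0.13 with gene-wise ratio scaling. Pdlim5, with 156 kb, was at 0.49 in young I/R. In aged I/R it was at 0.35, close to the 0.39 of the long members. Whether introns were counted is not stated in the sources used here, and the part of gene length was not tested.

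**Figure D4:**
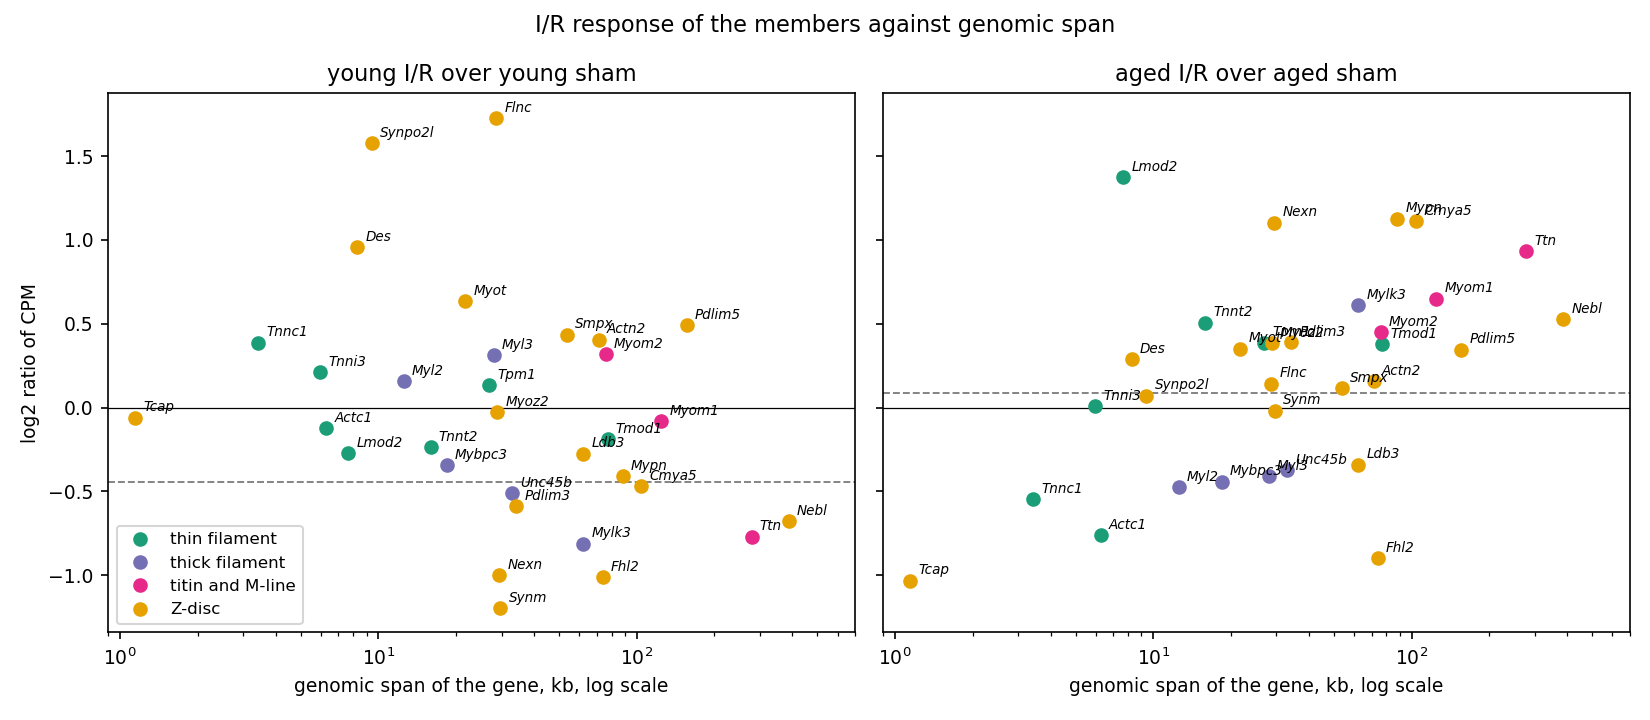
Log2 ratio of I/R over sham against the genomic span of each member in kb, on a log axis, for young (left) and aged hearts (right), with the median of all genes dashed. Ttn and Nebl, with spans of 279 and 388 kb, lay below the young median and above the aged median, while Tcap, with 1.14 kb, lay lowest in aged hearts.

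Between the sham libraries, 10 members were higher in aged and 13 lower under all 6 ways of scaling or counting, and 9 changed direction with the scaling, beside 23.3%, 48.9% and 27.7% of all genes. Myom2 and Myot stayed at least 1.5-fold higher, and Lmod2, Ttn and Mypn at least 1.5-fold lower, in all 6. Between the I/R libraries, 14 members were higher in aged and 7 lower in all 6, and 11 changed direction, beside 55%, 11.1% and 33.9% of all genes. Myom2, Nebl, Nexn, Cmya5 and Synm stayed at least 1.5-fold higher and Flnc at least 1.5-fold lower. Myom2 was the only member past the fold upward in both age comparisons under all 6. The shares of all genes past the fold in all 6 were not computed, so these members have no background beside them.

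**Figure D5:**
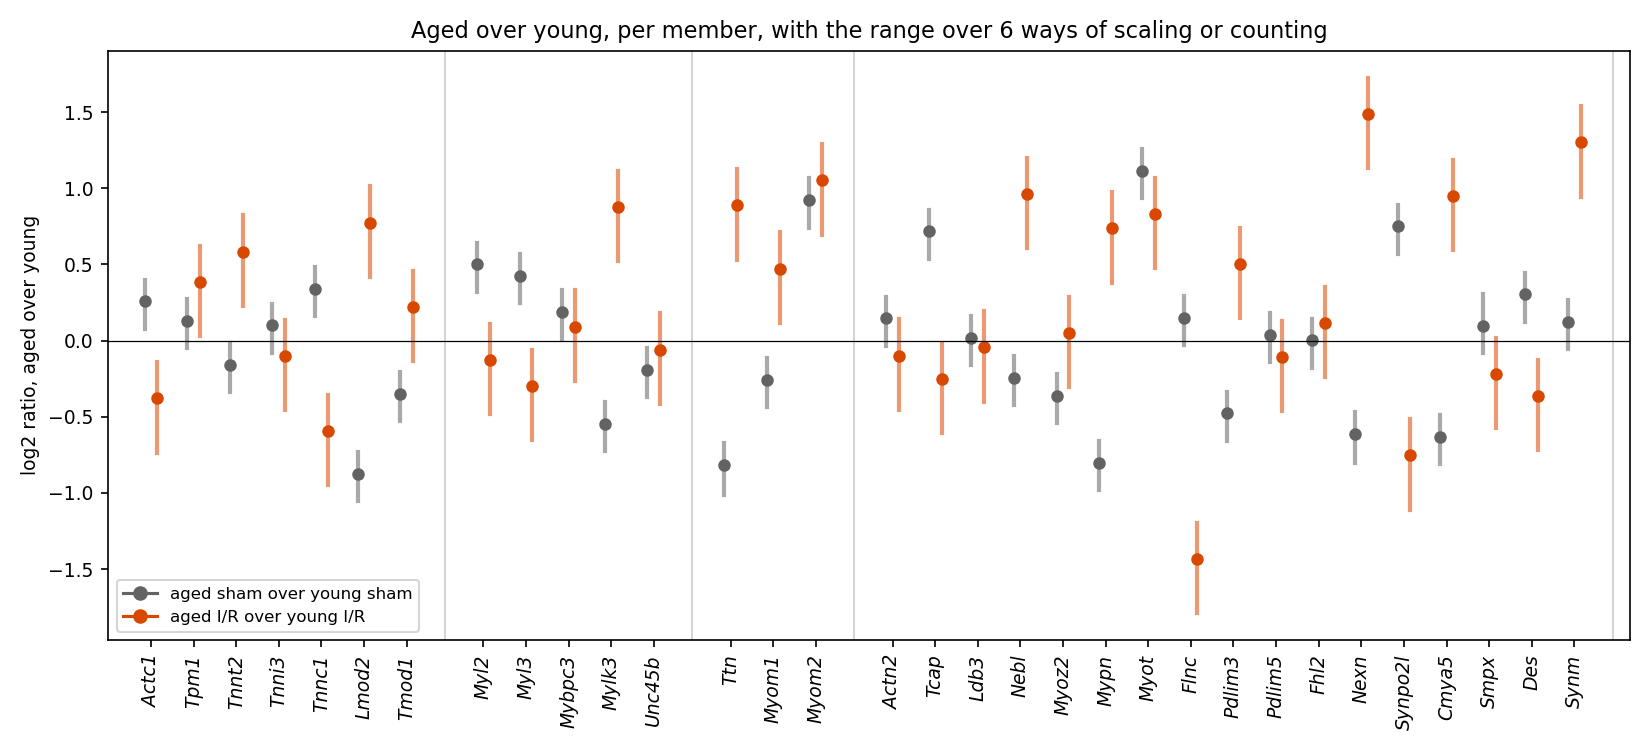
Log2 ratio of aged over young for each of the 32 genes, in sham (grey) and I/R (orange), grouped by role from thin filament at the left to Z-disc at the right. Points are CPM ratios and bars their range over 6 ways of scaling or counting. Ttn, Mylk3, Lmod2, Nexn and Cmya5 lay below 0 in sham and above 0 in I/R, and Myom2 and Myot above 0 in both.

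Of 40 other sarcomere genes, 38 had at least 100 UMIs in the I/R comparisons. In young I/R over young sham, 11 of them were at least 1.5-fold higher and 10 lower, beside 5.35% and 41.9% of all genes, with a median of 0.24. In aged I/R over aged sham, 9 were higher and 2 lower, beside 14.4% and 7.43% of all genes, with a median of 0.04. The extremes in young I/R were Ankrd2, a stretch-responsive ankyrin repeat protein, at 0.387 CPM in young sham and 18.9 in young I/R, and Myh7b, a minor myosin heavy chain, at 134 and 16.7 CPM. Fhl1, a relative of Fhl2, was at 42.3 CPM in young sham and 216 in young I/R, in contrast to the lower level of Fhl2, and Lmod3, a relative of Lmod2, at 93.2 and 26.5 CPM. In aged I/R over aged sham, Ankrd2 (3.56) and Trim55, a titin-binding ubiquitin ligase (1.51), had the highest ratios, and Acta1, the skeletal actin (-1.27), and Myh7, the beta-myosin heavy chain (-0.98), the lowest.

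In aged over young sham, Myh7 (4.02) and Ankrd1, a titin-binding load sensor (0.87), were highest among those genes and Trim55 (-1.23) and Myh7b (-1.12) lowest. Myh7 (2.66) and Trim55 (1.77) were highest in aged over young I/R, and Acta1 (-2.34) and Ankrd2 (-1.65) lowest. Reads of Myh7 may be shared with an antisense RNA of the same locus, and this was not tested. Of 15 genes of sarcoplasmic reticulum calcium cycling, 14 and 15 had at least 100 UMIs in the I/R comparisons. In young I/R, 1 was at least 1.5-fold higher and 5 lower (median -0.07), beside 5.35% and 41.9% of all genes. In aged I/R, 2 were higher and 1 lower (median -0.12), beside 14.4% and 7.43%.

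Among barcodes thinned to 250 UMIs, each one held at least 1 UMI of the 32 genes in every library, with a mean of 17.4 to 21.9. Barcodes richest in 16 other cardiomyocyte genes, 10.9% to 13.3% of each library, had 83198 CPM of the members in young sham and 69687 after young I/R, and 73073 in aged sham and 86154 after aged I/R. Barcodes with at least 2 UMIs of endothelial, fibroblast or macrophage genes had 76176, 68775, 72198 and 86179 CPM, so the member level of the first class was 1.09, 1.01, 1.01 and 0.9997 times that of the second. The 2 classes overlapped, and the shared barcodes entered both sides of these values. Of the 5595, 11789, 10880 and 9943 barcodes of the first class, 1403, 2079, 3419 and 2419 were also in the second. The second class made up 24.5%, 17.7%, 32.1% and 25.5% of all thinned barcodes. All thinned barcodes together had 81848, 69701, 73168 and 87520 CPM of the members. The first class lay above that level in young sham only. By these markers, barcodes were not separated into some with and some without the members. No cell filter was applied, and whether a barcode held a cell was not tested, so the classes are of barcodes and not of cells. Values elsewhere are for whole libraries. Within the first class, the members' median ratio was -0.21 for young and 0.30 for aged I/R over sham. It was -0.02 for aged over young sham and 0.17 for aged over young I/R. Because that class differed little from all thinned barcodes in member level, these ratios are not a separate view of cardiomyocytes. Thinning left out 52.4%, 13.9%, 12.6% and 0% of the barcodes.

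Heart muscle was checked with 16 cardiomyocyte genes outside the members, which summed to 28166, 29382, 31927 and 24913 CPM. Markers of other cells were scarcer, 15 endothelial genes at 1578 to 2043 CPM, 15 fibroblast genes at 1143 to 1929, 15 macrophage genes at 310 to 642 and 12 smooth muscle and pericyte genes at 654 to 901, each list with no gene at 0. The 7 atrial genes were at 476, 1316, 960 and 481 CPM, with 1 gene at 0 in young I/R. The 7 neutrophil genes were at 14.7, 101, 24.6 and 101 CPM, with 1 gene at 0 in young sham, and 5 red cell genes at 2567, 1957, 1691 and 1025 CPM. The atrial sum was highest in young I/R, the library in which Flnc, Synpo2l and Des were highest, and the neutrophil sum was higher in both I/R libraries. Their part in the results was not tested. Reads of some members may be shared with an overlapping gene, on the same strand for Tnni3 (Dnaaf3) and on the other strand for 12 others, among them Tnnc1 (Nisch), Myl3 (Pth1r), Ttn (Gm13938) and Des (Gm15179).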

How the data were processed

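Left ventricular libraries of 4 conditions, 1 per condition, were deposited by the authors as UMI count matrices. The submitters' processing notes name Cell Ranger 6.0.2 and the mm10 build. Whether introns or strand were counted, and how many mice were pooled, is not given in the sources used here. Counts were summed over all deposited barcodes, with no cell filter or doublet removal, and divided by the library total (CPM). The members and the comparison lists were chosen with earlier results of these data known, and the pair ratios, the split by genomic span and the choice of printed windows were made after values were seen. All members were described by role, with intervals for the extremes of each role in each comparison and for members with opposite directions after I/R. Of the other sarcomere genes, those with the 2 highest and the 2 lowest ratios among genes with at least 100 UMIs were named. Levels have exact Poisson and ratios exact conditional binomial 95% intervals, which cover counting error only. A 1.5-fold difference was the threshold for counting a gene, and no p-value was computed. For the check by barcode content, barcodes were thinned to 250 UMIs, and those near the top 10% in reference cardiomyocyte UMIs were set against those with at least 2 UMIs of other cell types. Alternatives were 3 scalings, barcodes with at least 200 genes, barcodes counted equally, a fold of 2 and other barcode limits. Spans, exons and overlaps came from GENCODE vM21 (GRCm38), and upstream sequences from RefSeq (GRCm38.p6). The scripts were tested on simulated data, with Python 3.11.15, NumPy 2.4.6, pandas 2.3.3, SciPy 1.17.1 and Matplotlib 3.10.9.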

Additional observations from a re-analysis of the deposited data

Results flagged for a closer look

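In 14 members the counting intervals of the log2 ratio of I/R over sham lay on opposite sides of 0 in young and aged hearts. The same held for 41.4% of all genes with at least 100 UMIs in each library, beside 43.8% of the members. The difference, aged minus young, was 0.74 for Tnnt2, -0.93 for Tnnc1, 1.65 for Lmod2 and 0.57 for Tmod1 in the thin filament. In the thick filament it was -0.63 for Myl2, -0.72 for Myl3 and 1.42 for Mylk3. Ttn differed by 1.70 and Myom1 by 0.73. In the Z-disc the difference was 1.21 for Nebl, 1.54 for Mypn, 0.98 for Pdlim3, 2.102 for Nexn and 1.58 for Cmya5. With 1 library per condition, these differences were not tested beyond counting error.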

How the results depend on the processing

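No replicate could be left out and no paired analysis was possible because each condition has 1 library. With scaling by the median of gene-wise ratios, the members' median log2 ratio was 0.30 in young and 0.23 in aged I/R over sham. In young I/R, 11 members were at least 1.5-fold higher and 3 lower, beside 16% and 22.5% of all genes. In aged over young, the members' median was 0.21 in sham and -0.25 in I/R. In sham 3 members were lower, beside 10.6% of all genes. In I/R 5 were higher and 7 lower, beside 19.1% and 11.4%. With Gm42418, Malat1 and mitochondrial genes left out of the totals, the 4 medians in the same order were 0.044, 0.23, 0.14 and -0.057. In aged over young sham 3 members were then lower, beside 13.2% of all genes. With scaling by reference cardiomyocyte genes the medians were -0.16, 0.68, -0.11 and 0.34. In aged I/R over sham 17 members were higher and 1 lower, beside 38.1% and 1.84% of all genes. In aged over young, 2 were higher in sham and 1 lower in I/R, beside 3.2% and 1.46%. Barcodes with at least 200 genes gave a median of 0.021 in aged over young sham. The cause was not tested. At a fold of 2, the counts higher and lower were 2 and 2, 4 and 1, 1 and 0, and 3 and 1. The shares of all genes past a fold of 2 were not computed, so these counts have no background beside them. Without Ttn, titin and the M-line took 2.56%, 2.44%, 2.32% and 3.59% of member UMIs in the young sham and I/R and the aged sham and I/R libraries. The member level in barcodes richest in the reference cardiomyocyte genes was also compared with that in barcodes bearing other-cell markers. At 400 UMIs the ratio was 1.06 in young sham and 1.01 in aged I/R. With at least 3 other-cell UMIs it was 1.14, 1.02, 1.02 and 1.01. No setting moved a member by more than 0.41 log2 units, which is less than 1.5-fold. The direction of members past 1.5-fold therefore could not turn, and it was the same in every setting. With gene-wise ratio scaling, 7 of 11 and 8 of 10 of them stayed past the fold in young and aged I/R over sham. In aged over young, 7 of 9 stayed past it in sham and 8 of 13 in I/R. Counting every barcode equally was not run for opposite directions, since it gives no counts.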
